A study of Rattus norvegicus with 4 samples.

Results

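miR-22 is a microRNA made from the single rat hairpin rno-mir-22, whose stem gives a 3p arm and a 5p arm. Every read sequence (tag) that the tag files place on this hairpin was taken, and its counts were summed by arm, start, length and mismatch. This gave 35 distinct tags with 1798 counts, of 2 arms among the 348 mature arms counted in the series. The hairpin held 3 of 713 tags on named hairpins in Exo-AT replicate 1, 12 of 2591 in Exo-AT replicate 2 and 27 of 1894 in Exo-ADSCs replicate 2. miR-22 was singled out because its 3p arm was already known to be lower in Exo-AT in these data, so its levels between the groups are a description and carry no test.

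Exo-AT are exosomes, small membrane vesicles, shed by minced adipose tissue of Sprague-Dawley rats aged 4 weeks during 3 days in a stirred flask. Exo-ADSCs are exosomes shed over 3 days by adipose stem cells of passage 3 in medium without serum. Explants keep the mixed cell types of the tissue. Both were made in α-MEM with penicillin and streptomycin, no genotype or drug separates them, and neither the fat depot nor the number of animals is stated in the labels. Each group has 2 small RNA libraries, but counts per tag were used for both Exo-AT libraries and for Exo-ADSCs replicate 2 alone. The authors' deposited table lists 45 miRNAs as raised in Exo-AT, and 0 of them are miR-22, so Exo-ADSCs replicate 1 gives no value for it.

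A mature miRNA guides a silencing complex to messenger RNAs, chiefly through its bases 2 to 8, the seed. In most tissues the 3p arm is the guide of miR-22 and the 5p arm the rarer partner strand. In mice miR-22 is abundant in heart and skeletal muscle, and in human adipose-derived mesenchymal cells it has been described as favouring bone-forming over fat-forming differentiation.

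The hairpin of the files is identical to the RefSeq entry Mir22, at chr10:60805331-60805425 on the plus strand of GRCr8. In that annotation no other gene spans it. Wdr81 and Mir6326 precede it, and Tlcd2 and Prpf8 follow. The hairpin of 95 nt is shown with both mature arms in capitals (5p first), and the mature arms with their seeds in capitals, as the frame against which every tag was placed. Both arms matched an entry.
rno-mir-22 hairpin: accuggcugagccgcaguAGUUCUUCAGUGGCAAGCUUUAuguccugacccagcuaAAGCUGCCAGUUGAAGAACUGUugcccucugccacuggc
rno-miR-22-3p: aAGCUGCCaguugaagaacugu
rno-miR-22-5p: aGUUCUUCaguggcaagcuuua

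Shown next are the 5 most abundant tags of each library on miR-22-3p and any with over 5% of a library's counts, since the forms described later are read from them. In the first 4 and the last 2 the capitals mark the seed of the RefSeq sequence. In the other 4 they mark the one base that differs from the hairpin.
22 nt tag: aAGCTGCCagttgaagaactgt
21 nt tag, early end: aAGCTGCCagttgaagaactg
20 nt tag: aAGCTGCCagttgaagaact
19 nt tag: aAGCTGCCagttgaagaac
19 nt tag with A18C: aagctgccagttgaagaCc
19 nt tag with A15C: aagctgccagttgaCgaac
23 nt tag with leading G: Gaagctgccagttgaagaactgt
20 nt tag with leading G: Gaagctgccagttgaagaac
23 nt tag with leading A: aaAGCTGCCagttgaagaactgt
21 nt tag, late start: AGCTGCCagttgaagaactgt

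Of the distinct rat mature sequences in the RefSeq table, 1 holds the seed of miR-22-3p and 1 the seed of miR-22-5p, in both cases miR-22 itself. No mature rat sequence in the table has the seed that a start 1 base later (GCTGCCA) or 1 base earlier (AAGCTGC) would give.

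Depth differed widely between the libraries. Named hairpins took 9134 counts in the first Exo-AT library and 136024 in the second, against 97204 in the Exo-ADSCs library. Hairpins that the authors predicted took a further 39.9% and 24.9% of all assigned counts in the Exo-AT libraries and 86.4% in the Exo-ADSCs library, so a level depends on which total it is set against. Both Exo-AT files carry the same sample name inside. The Exo-ADSCs file used here carries the name A1 inside, and its number as replicate 2 was taken from the labels. No label ties replicates to separate animals or cultures, which means that spreads and p-values may reflect technical variation only. Of the marker lists, the 10 counted arms of the mesenchymal stromal list summed to 471973 and 425366 CPM (counts out of 1000000 on named hairpins) in the Exo-AT libraries, against 394346 CPM in the Exo-ADSCs library. With TMM scaling the same sums were 339859 and 392277 CPM for Exo-AT, against 593832 CPM for Exo-ADSCs, so their order turned with the scaling. Of the list's 9 tested arms 3 were called lower and 0 higher, where 19.1% of all tested arms were called in each direction. With so few arms nothing is read from that count. Endothelial miR-126a reached 3832 and 5102 CPM in both Exo-AT libraries, against 329 CPM in the Exo-ADSCs library. The erythroid list (3 arms) took 51018 and 166978 CPM of Exo-AT reads, against 33527 CPM for Exo-ADSCs (with TMM, 36737 and 153989 CPM, against 50488 CPM for Exo-ADSCs, where the groups overlap), and the leukocyte list (6 arms) 657 and 1140 CPM, against 154 CPM for Exo-ADSCs. The striated muscle list (4 arms) took 1971 and 1470 CPM of Exo-AT reads, against 206 CPM for Exo-ADSCs, and the neural list (3 arms) 4598 and 640 CPM, against 134 CPM for Exo-ADSCs. The liver list (1 arm) took 657 and 463 CPM, against 226 CPM for Exo-ADSCs, and the epithelial list (8 arms) 2299 and 1360 CPM, against 2387 CPM for Exo-ADSCs. With TMM the epithelial sums were 1656 and 1254 CPM for Exo-AT, against 3594 CPM for Exo-ADSCs, a wider gap. In these last lists miR-1b-3p of striated muscle (log2 fold change 4.74), neural miR-9a-5p (5.10) and epithelial miR-205-5p were called higher in Exo-AT, and epithelial miR-203a-3p (-3.87) was called lower. The part of these cell types in the miR-22 values was not tested.

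Exo-AT replicate 1 held 20 counts of miR-22-3p and Exo-AT replicate 2 held 287, against 1487 counts in the Exo-ADSCs library. It ranked 42nd and 37th among the arms of the Exo-AT libraries, and 9th in that of Exo-ADSCs. Scaled to named counts this was 2190 and 2110 CPM for Exo-AT, a mean of 2150 ± 56.4 CPM (SD, n = 2), against 15298 CPM in Exo-ADSCs (1 library, no SD). The Exo-AT libraries lay close together and far below the Exo-ADSCs library. In shares with Wilson 95% intervals, which cover counting error only, miR-22-3p took 0.219% (0.142 to 0.338) and 0.211% (0.188 to 0.237) of the named counts of Exo-AT and 1.53% (1.45 to 1.61) in Exo-ADSCs. In such bulk libraries fewer vesicles that carry a miRNA and less of it in each vesicle cannot be told apart.

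Fitted over all 183 arms that passed the filter on low counts, with edgeR and TMM scaling, the log2 fold change of miR-22-3p was -3.68 (SE 0.32), Exo-AT over Exo-ADSCs. It is one of the 35 arms called lower at an adjusted p of 0.05, 19.1% of those tested, and nothing is read from that call because miR-22 was chosen on this contrast. The median log2 fold change of all arms was 0.37, and relative to it miR-22-3p stood at -4.06. Under total-count scaling the median moved to 1.21 and miR-22-3p to -2.84. When predicted hairpins were also counted in the library total, miR-22-3p was at 1316 and 1585 CPM of that total in the Exo-AT libraries, against 2079 CPM in the Exo-ADSCs library. Its log2 fold change was then -0.49 (SE 0.37), with no call, while the median of all arms was 3.55. Its place relative to the median was -4.04 on that total. A change of scaling shifts all arms by nearly the same amount, so this place hardly moves by construction. The direction was the same in these scalings, but the size of the fold depended on the total chosen.

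The 5p arm was rare. Neither Exo-AT library held a count of miR-22-5p (0 and 0), and the Exo-ADSCs library held 4, all from 1 tag that lacks the last base of the RefSeq sequence. The 4 counts were 0.268% of the hairpin's counts (Wilson 95% interval 0.104 to 0.688). Taking 3 counts as the limit that a 0 allows, the 5p share could be up to 15.0% of the hairpin's 20 counts in the first Exo-AT library and 1.05% of the 287 in the second. At this depth a 5p share like that of Exo-ADSCs was not detectable in Exo-AT. miR-22-5p did not pass the filter on low counts and has no fold change.

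The 3′ end of miR-22-3p differed between the libraries. In Exo-AT most reads ran to the RefSeq end (80.0% and 79.8% of miR-22-3p counts), whereas in Exo-ADSCs 85.1% stopped 3 nt short of it and 8.41% reached it. The 22 nt tag, identical to the RefSeq sequence, was counted 11 and 165 times in Exo-AT, against 89 times in Exo-ADSCs. The 19 nt tag, which lacks the last bases tgt, was counted 0 and 16 times in Exo-AT, against 1096 times in Exo-ADSCs. The 22 nt tag was thus the most common one in both Exo-AT libraries, and the 19 nt tag in Exo-ADSCs.

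Scaled to named counts, the 22 nt tag was at 1204 and 1213 CPM in Exo-AT (mean 1209 ± 6.17, SD, n = 2) and at 916 CPM in the Exo-ADSCs library, a ratio of 1.32, Exo-AT over Exo-ADSCs. Its Wilson 95% intervals overlapped, at 673 to 2155 and 1042 to 1413 CPM for Exo-AT and 744 to 1126 CPM for Exo-ADSCs. The 19 nt tag was at 0 and 118 CPM in Exo-AT, with an allowance of up to 328 CPM for the 0, and at 11275 CPM in Exo-ADSCs. On this scale the 19 nt tag alone stood higher in Exo-ADSCs than all of miR-22-3p did in Exo-AT.

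**Figure D1:**
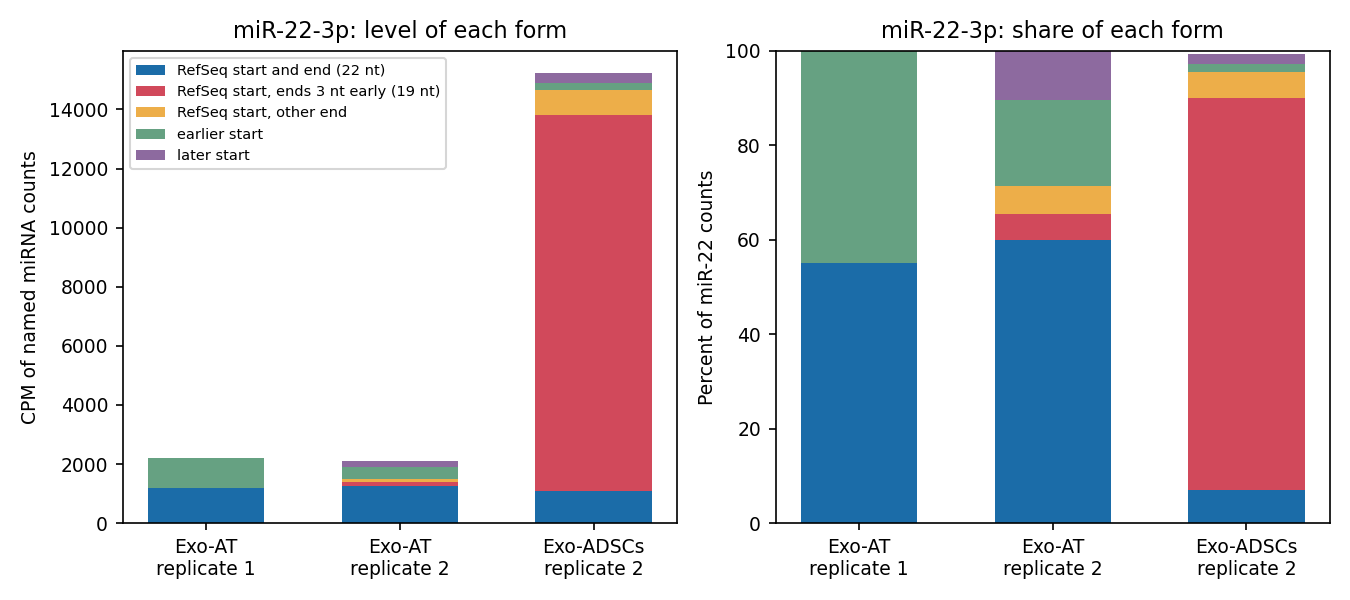
Forms of miR-22-3p in the 3 libraries, as stacked bars in CPM of named miRNA counts (left) and as percent of all counts on the miR-22 hairpin (right). The blue part, tags with the RefSeq start and end with or without a mismatch, is of similar height in all 3 bars on the left, and the red part, tags with the RefSeq start that stop 3 nt early, makes up 83% of the Exo-ADSCs counts. Tags of the 5p arm and outside both arms are not drawn, so the Exo-ADSCs bar on the right stops short of 100%.

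The sign of the full-length form moved with the scaling, as did the median of all arms. With all assigned counts as the total, the 22 nt tag averaged 818 ± 133 CPM of that total in Exo-AT (SD, n = 2) and 124 CPM in the Exo-ADSCs library, a ratio of 6.57, Exo-AT over Exo-ADSCs. When each arm was counted by its RefSeq-identical tags alone and scaled by TMM, a setting chosen after seeing the data, miR-22-3p had a log2 fold change of -0.97 (SE 0.36), with a median of 0.69 over the 75 arms tested. With the 19 nt tags of miR-22 left out, also added later, it was -1.14 (SE 0.42). With tags of 20 to 25 nt only it was -1.71 (SE 0.42). The fold of miR-22-3p was smaller in each tag set without the 19 nt tags. This holds by construction, as those tags held most of its counts in Exo-ADSCs and few in Exo-AT. Relative to the median of all arms counted by RefSeq-identical tags, with TMM, the full-length tag stood at -1.66 (log2). Relative to the median of arms counted with all their tags, it stood at -0.81 with total named counts and -0.83 with all assigned counts. These last values set a part of miR-22-3p against whole arms, so they are not like the first. They lie close to each other by construction, as a change of total shifts all arms nearly alike.

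**Figure D2:**
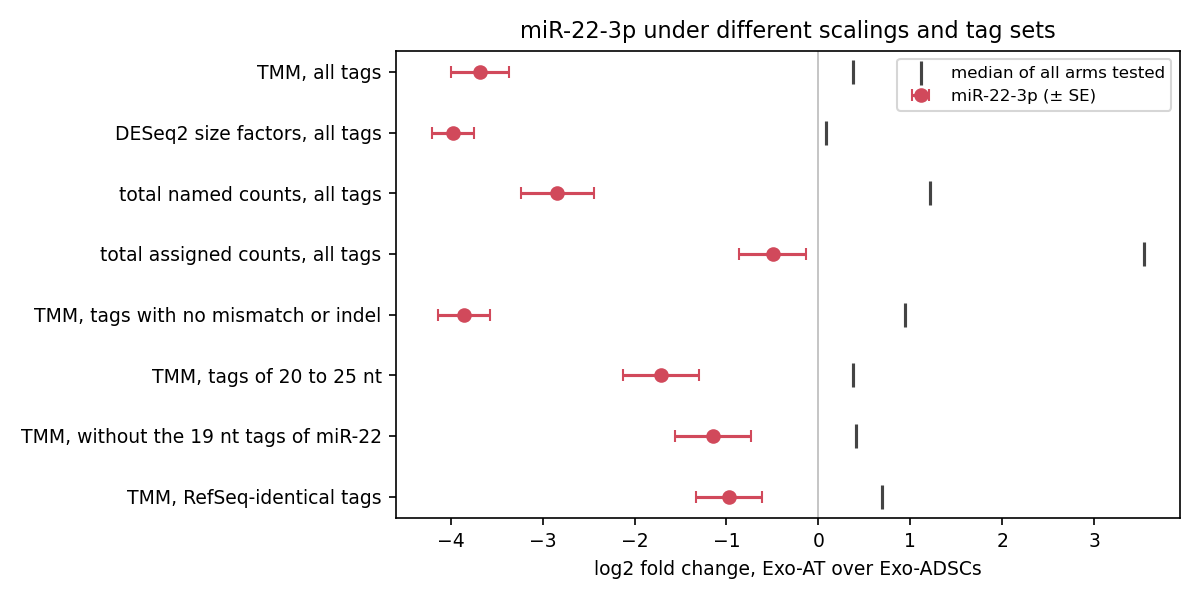
Log2 fold change of miR-22-3p, Exo-AT over Exo-ADSCs (red points, bars are SE), and the median of all arms tested (black ticks), for 4 scalings and 4 restrictions on the tags. The red points lie between -3.98 and -0.49, and the 3 lowest rows, which leave out the 19 nt tags in different ways, lie between -1.71 and -0.97.

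The other forms were smaller. The 20 nt tag was counted 0 and 0 times in Exo-AT, against 54 times in Exo-ADSCs, and the 21 nt tag with the early end 0 and 15 times in Exo-AT, against 6 times in Exo-ADSCs. The 21 nt tag with the late start was counted 0 and 18 times in Exo-AT, against 0 times in Exo-ADSCs. Of the 35 tags, 1, the 22 nt tag, was in all 3 libraries. Exo-AT replicate 1 had 0 tags of its own, Exo-AT replicate 2 had 6 and Exo-ADSCs replicate 2 had 23, and the number of tags followed the number of counts. The share of unshared tags over all named hairpins is not given, so nothing is read from these numbers.

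Read lengths of miR-22-3p showed the same split. The mean tag length was 21.9 nt in Exo-AT replicate 1 and 21.6 nt in Exo-AT replicate 2, against 19.3 nt in the Exo-ADSCs library. Tags between 21 and 23 nt held 80.0% (58.4 to 91.9) and 85.7% (81.2 to 89.3) of its counts in the Exo-AT libraries and 7.60% (6.36 to 9.06) in the Exo-ADSCs library. Over all other named arms those lengths held 71.4% and 75.8% of Exo-AT counts and 25.1% of Exo-ADSCs counts. Tags of 19 nt held 0% (allowing up to 15.0%) and 5.57% of miR-22-3p in the Exo-AT libraries and 83.5% in the Exo-ADSCs library. Of the other arms' counts they held 4.49% and 4.2% in Exo-AT, against 7.47% in Exo-ADSCs.

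**Figure D3:**
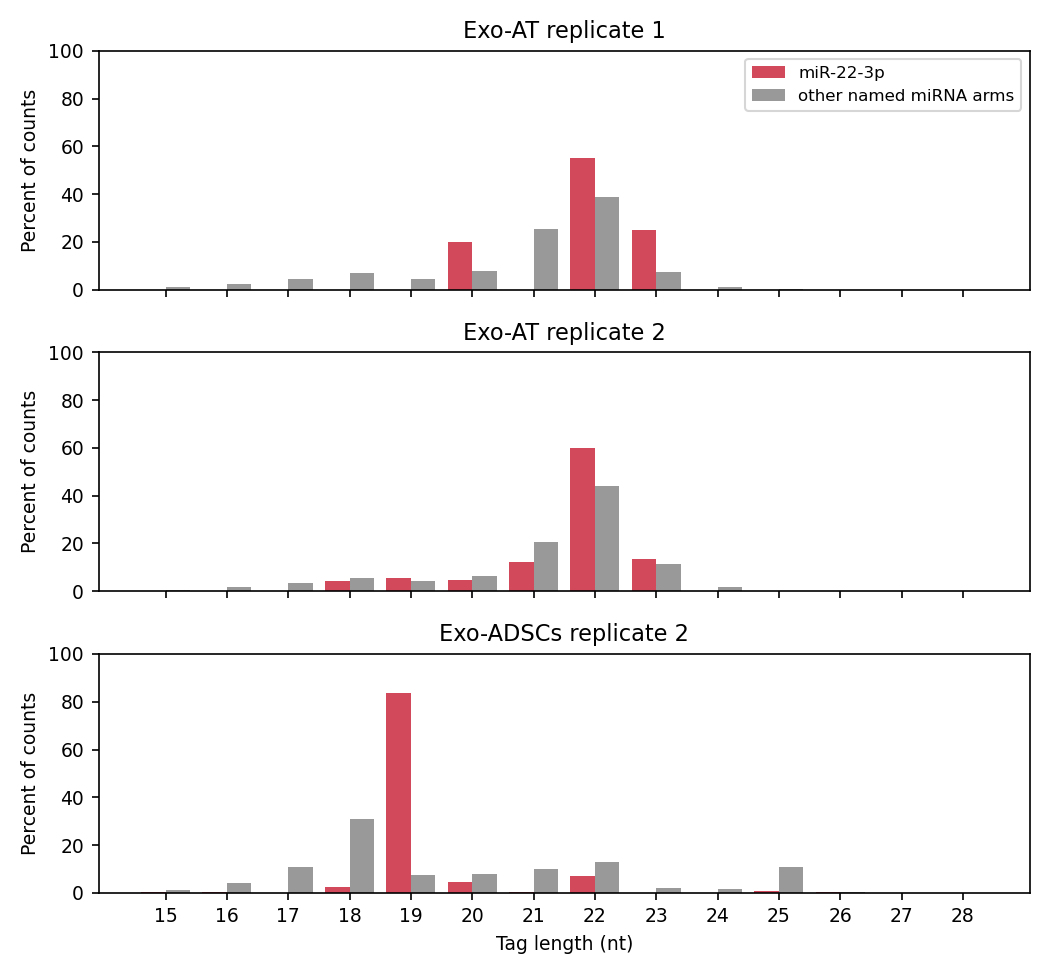
Length of the tags of miR-22-3p (red) and of all other named arms (grey) in each library, as percent of counts. The red peak is at 22 nt in both Exo-AT libraries and at 19 nt, with 83.5% of counts, in Exo-ADSCs replicate 2.

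Among 37 arms with at least 20 counts in every library, 32 had a RefSeq sequence placed on their hairpin. Of the miR-22-3p counts that overlapped that sequence, 4 of 20 and 14.3% ended 3 nt early in the Exo-AT libraries, against 85.5% in the Exo-ADSCs library. In Exo-ADSCs this was the highest of the 32 arms, followed by miR-152-3p at 78.9%, miR-30e-5p at 50.0% and miR-148a-3p at 40.0%, and the median of the other arms was 1.03%. For these arms, named because they came next, the shares in Exo-AT were 25% and 11.1% (miR-152-3p), 20.6% and 28.9% (miR-30e-5p), and 0% and 2.43% (miR-148a-3p). In the Exo-AT libraries miR-22-3p was the 5th of the 32 in both. Counted as any end at least 3 nt early, its 86.0% in Exo-ADSCs was the 6th highest, with other arms between 0% and 97.4%. Early ends were thus common among other abundant arms of that library too.

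The mean length of miR-22-3p was 2.27 nt greater in Exo-AT replicate 2 than in Exo-ADSCs replicate 2, the 5th largest difference of the 37 arms. Tags identical to the RefSeq sequence made up 55.0% and 57.5% of its overlapping counts in the Exo-AT libraries (5th and 3rd highest of the 32) and 6.01% in the Exo-ADSCs library (21st). These ranks describe 3 libraries and were not tested, since Exo-ADSCs has 1 of them.

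**Figure D4:**
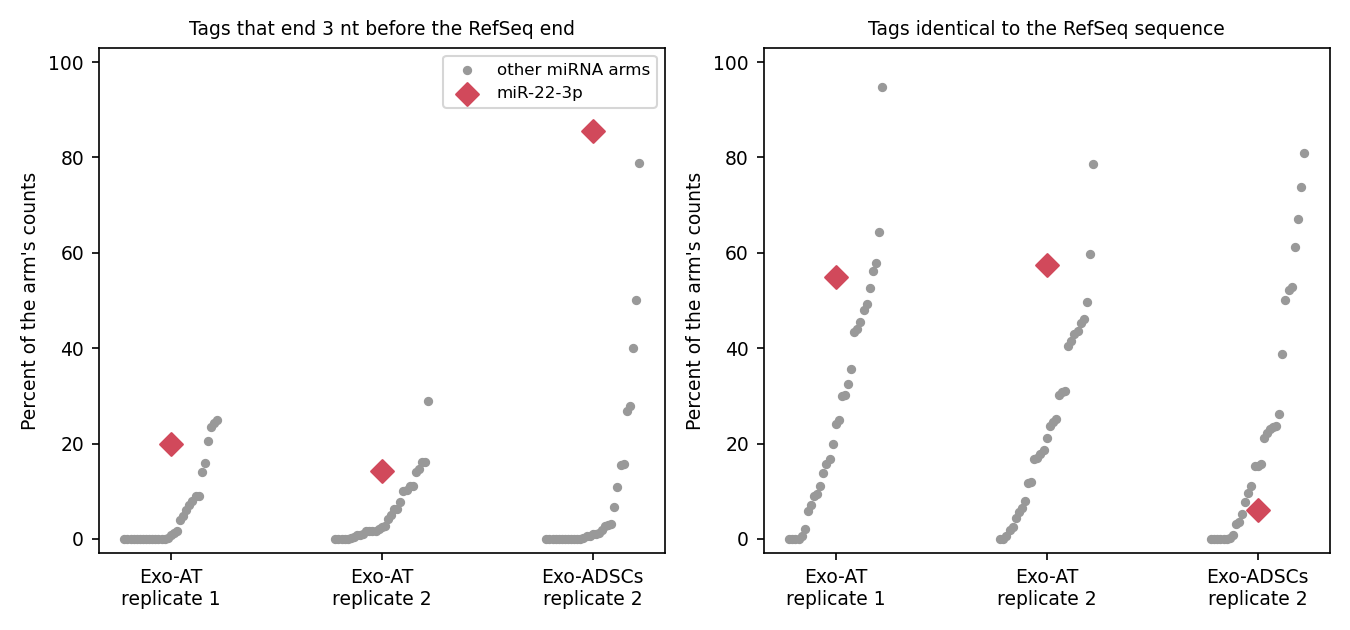
Percent of each arm's counts that end 3 nt before the RefSeq end (left) and that are identical to the RefSeq sequence (right), for 32 arms with at least 20 counts in every library. Red diamonds are miR-22-3p and grey points are other arms, sorted by value within a library. The diamond is the highest point on the left in Exo-ADSCs replicate 2 (85.5%) and sits among the upper points on the right in both Exo-AT libraries.

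The 5′ end sets the seed, and over all tags a smaller share of Exo-AT counts had the RefSeq start. The RefSeq start held 55.0% (34.2 to 74.2) and 71.4% (65.9 to 76.3) of miR-22-3p counts in the Exo-AT libraries and 95.8% (94.6 to 96.7) in the Exo-ADSCs library. Over other placed arms it held 61.3% and 54.0% of Exo-AT counts and 72.4% of Exo-ADSCs counts. In tags of miR-22-3p with no mismatch or indel it held 100% and 81.7% in Exo-AT replicates 1 and 2, against 97.0% in Exo-ADSCs. The order thus turned for Exo-AT replicate 1, where all counts off this start had a mismatched leading G. A start 1 base later, which drops the first A and shifts the seed, held 0% (allowing up to 15.0%) and 10.5% of the Exo-AT counts, against 2.15% of the Exo-ADSCs counts.

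A start 1 base earlier held 45.0% (25.8 to 65.8) and 18.1% (14.1 to 23) of the counts of Exo-AT, against 0.672% of those of Exo-ADSCs, where all of it was a tag with an inserted pair of bases. In Exo-AT most of these tags began with G in place of the hairpin's A, written A1G from the tag's 5′ end. They made up 9 of 20 and 35 of 287 counts for Exo-AT, against 0 of 1487 for Exo-ADSCs, which allows up to 0.202%. A start 1 base earlier with the hairpin's own A was counted 0 and 17 times in Exo-AT, against 0 times in Exo-ADSCs. The leading G was seen in both Exo-AT libraries, although Exo-AT replicate 1 rests on 9 counts.

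A mismatched G at the first base of the tag, at any start, took 45.0% and 12.2% of miR-22-3p in the Exo-AT libraries and 0.471% in the Exo-ADSCs library, where its 7 counts came from starts 3 bases early. Over the other named arms such a G took 3.16% and 3.06% of Exo-AT counts and 0.252% of Exo-ADSCs counts. miR-22-3p ranked 1st and 2nd of 37 arms in the Exo-AT libraries by this share. The only arm above it in Exo-AT replicate 2 was miR-320-5p at 18.3%.

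The share of early 3′ ends varied with the 5′ start in Exo-AT replicate 2. Ends 3 nt early made up 7.80% (4.86 to 12.3) of its tags with the RefSeq start, 37.1% (23.2 to 53.7) of those with the leading G and 40% (24.6 to 57.7) of those that start 1 base late, but 0 of 17 with the hairpin's A in front, which allows up to 17.6%. Over any earlier start they made up 13 of 52. In Exo-AT replicate 1 all 4 counts with the early end had the leading G, and of the 11 with the RefSeq start 0 ended early. In Exo-ADSCs the early end held 86.9% (85.0 to 88.5) of tags with the RefSeq start and 87.5% (71.9 to 95) of those 1 base late, but 0 of 24 with any earlier start, which allows up to 12.5%. Those 24 counts were 10 of the tag with the inserted bases, 7 of a tag of 26 nt and 7 of 3 tags that start 3 bases early.

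Mismatches or indels were present in 45.0% (25.8 to 65.8) and 16.4% (12.5 to 21.1) of miR-22-3p counts in the Exo-AT libraries and 12.8% (11.2 to 14.6) in the Exo-ADSCs library, but their kinds differed. In Exo-AT the leading G made up 9 of the 9 changed counts of replicate 1 and 35 of the 47 of replicate 2. The other changes in replicate 2 lay in the seed, with positions counted from the RefSeq start: A2G with 7 counts, G3T with 3 and A2T with 2. They came to 4.18% (2.41 to 7.16) of counts there, against 0.134% (0.0369 to 0.489) for seed changes in Exo-ADSCs.

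A change of A to C was not seen in miR-22-3p of Exo-AT, with 0 counts in both libraries, which allows up to 15.0% in replicate 1 and 1.05% in replicate 2. In Exo-ADSCs such changes took 9.68% (8.28 to 11.3) of miR-22-3p, from A18C with 101 counts (6.79%) and A15C with 43 (2.89%), both outside the seed. G16T had 13 counts there (0.874%). Over the other named arms, A-to-C changes took 0.450% and 0.395% of Exo-AT counts and 2.35% of Exo-ADSCs counts. A18C was present in every length form of Exo-ADSCs large enough to judge, with 6.55% (5.30 to 8.07) of the 19 nt form, 14.7% (8.19 to 25) of the 20 nt form and 9.52% (5.26 to 16.6) of the 22 nt form. The interval of the 19 nt form lies just below that of the 20 nt form, and that of the 22 nt form overlaps both. However, the 19 nt tag with A18C holds only 81 of its 162 reads here, as the others were counted on a predicted hairpin. The longer tags with A18C were not divided, so these shares do not rank the forms.

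The 19 nt tag with A18C is the one miR-22 tag that also aligned elsewhere. Its 162 reads were divided evenly, with 81 counts on rno-mir-22 and 81 on a hairpin the authors predicted on chromosome 16. Tags of this kind held 0 of 20 and 0 of 287 miR-22-3p counts in the Exo-AT libraries, and 5.45% in the Exo-ADSCs library.

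Arms were compared by the distance between centred log2(CPM + 1) values over the 3 libraries, with CPM scaled by TMM. Of 48 other arms with at least 10 counts in every library, 5 were nearest to miR-22-3p. They were miR-99b-5p (distance 0.26), miR-100-5p (0.55), miR-140-3p (1.20), miR-320-3p (1.24) and miR-24-3p (1.30). The median distance was 3.11. Log2 fold changes of the 5 nearest arms were -3.88, -3.13, -2.24, -2.12 and -5.13 in the same order. miR-99b and miR-100 belong to 1 seed family, but miR-99a-5p of that family went the other way, with a log2 fold change of 4.46. All arms share the depth and scaling of the same 3 libraries, and the distances are a description.

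Of a list of 23 miRNAs known for roles in fat or bone differentiation of mesenchymal cells, miR-22 included, 24 arms were tested. Of these, 3 were called higher in Exo-AT, 9 lower and 12 not, against 19.1% of all arms in each direction and 38.3% in either. The 9 lower count miR-22-3p itself, which was chosen on this contrast. Those lower included miR-143-3p, an abundant stromal and smooth muscle miRNA, at -0.87 (log2 fold change), miR-378a-3p, which lies within the gene of a metabolic coactivator, at -1.59 and hypoxia-induced miR-210-3p at -4.72. Those higher were miR-26a-5p at 2.50, miR-27b-3p at 2.02 and miR-204-5p at 3.42. The median of the list was -0.94 with TMM, -0.08 with total named counts and 2.24 with all assigned counts, against medians of 0.37, 1.21 and 3.55 over all arms. In place of 3 higher and 9 lower, the calls were 1 and 8 with DESeq2 size factors. They were 3 and 4 with total named counts and 13 and 1 with all assigned counts, so the sign moved with the scaling. Over all 183 arms tested, the calls were 23 and 30, 46 and 19, and 109 and 5 in the same order of scalings. Relative to the median of all arms, the list's median stood at -1.32 with TMM and -1.30 with DESeq2 size factors. It stood at -1.29 with total named counts and -1.30 with all assigned counts. These values are alike by construction, as a change of scaling shifts all arms by nearly the same amount.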

How the data were processed

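Small RNA of about 15 to 35 nt was read for 36 cycles on an Illumina HiSeq, per the labels' protocols. The deposited tag files hold whole-number counts per distinct tag and hairpin, each tag with at least 2 reads and its reads divided between the hairpins it aligned to. Novoalign 2.07.11 and the build rn6 stand in the submitters' processing notes. Adaptor trimming is not given in the sources used here. Normalized reads in the authors' deposited table are a score of unstated factor, and only its names were used. A file of Exo-ADSCs replicate 1 that holds no value per miRNA was left out.

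File positions were lowered by 5 to count from the hairpin's first base. A tag took the arm of its midpoint, and copies of a miRNA at several loci were added up. RefSeq sequences (GRCr8) were placed on the files' hairpins by exact match. Counts of arms were tested with edgeR 4.0.16 under R 4.3.3 (two-sided quasi-likelihood test), TMM scaling, minimum count 10 and minimum total 15, with Benjamini-Hochberg adjustment called at 0.05. The TMM factors were 1.39, 1.08 and 0.664 for Exo-AT replicates 1 and 2 and Exo-ADSCs replicate 2. With 1 Exo-ADSCs library, the spread comes from the Exo-AT libraries alone. The fit was also run on simulated counts with as many raised as lowered arms. That balanced setting cannot speak to the choice of scaling, so nothing is read from it here. DESeq2 1.42.0, other scalings and restricted tag sets were alternatives, and 3 of them (all assigned counts as the total, RefSeq-identical tags, no 19 nt tags of miR-22) were chosen after seeing the data. Shares have Wilson 95% intervals, which, like the allowance of 3 counts for a 0, cover counting error only.

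Named were both arms, the 5 most abundant tags per library and those over 5%, the 5 nearest arms, and the most abundant called arms of a list. Members, lists and tests were chosen with earlier results of these data known.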

Additional observations from a re-analysis of the deposited data

Results flagged for a closer look

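Tags with a run of at least 14 bases of a miR-22 arm had 83 counts on 1 predicted hairpin of chromosome 16 in Exo-ADSCs replicate 2, above the 3 counts that a count of 0 allows, and 0 in either Exo-AT library. Of these, 81 are the other share of the 19 nt tag with A18C and 2 are a tag of 18 nt. They are data outside the comparison of named arms.

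Tags on the miR-22 hairpin but outside both mature sequences had 7 counts in Exo-ADSCs replicate 2, and 0 in both Exo-AT libraries. They are 2 tags of 16 and 15 nt that begin near the hairpin's 3′ end and run past it, with 4 and 3 counts. By the midpoint rule they were counted as miR-22-3p, of which they are 0.471% in Exo-ADSCs.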

How the results depend on the processing

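The log2 fold change of miR-22-3p (-3.68) stayed negative in all 11 alternatives and ranged from -3.83 to -3.57 when either Exo-AT library was left out, as values with no test. It moved to -2.84 with total named counts, -0.49 with all assigned counts (no call), -1.71 with tags of 20 to 25 nt, -0.97 with RefSeq-identical tags and -1.14 without the 19 nt tags of miR-22. In the last 4 the total or the tags counted differ by construction. With total named counts the TMM factors are left out by construction. The median of all arms moved from 0.37 to 1.21 there, and miR-22-3p stood at -4.05 relative to it, against -4.06 with TMM. A place relative to the median hardly moves with the scaling by construction. Calls over all arms (35 higher, 35 lower) were 22 and 21 with DESeq2, 23 and 30 with its size factors, 46 and 19 with total named counts, 109 and 5 with all assigned counts, and 17 and 20 with RefSeq-identical tags. Without mismatched tags the RefSeq start held 100%, 81.7% and 97.0% in Exo-AT replicates 1 and 2 and Exo-ADSCs replicate 2, and the mean length in Exo-ADSCs was 19.2 nt. With tags of 20 to 25 nt the mean length was 21.9 nt in Exo-AT replicate 2 and 21.5 nt in Exo-ADSCs, where the RefSeq start held 91.3%, mismatches 24.0% and the 3p arm 98.0%. With tags of at least 10 counts the RefSeq start held 100% in Exo-AT replicate 1 and 97.3% in Exo-ADSCs, mismatches 0% and 11%, the mean length in Exo-AT replicate 2 was 21.7 nt, and the 3p arm held 100% in Exo-ADSCs. Of 63 alternative values in all, 35 stayed within 1.5 times (counts of calls) or within the spread or interval of the main value. Exo-AT replicate 1, with 20 counts of miR-22, limits every share given for it. miR-22-5p has no fold under any alternative. No paired analysis was possible because only 1 Exo-ADSCs library has tag counts here, which leaves a fit with a replicate block no residual degree of freedom.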

Other observations

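The hairpin bases that follow a tag's last base were counted after the tags had been seen. Both common ends of miR-22-3p are followed by TG in the hairpin, the 19 nt end by tgt and the 22 nt end by tgc. Of miR-22-3p counts, 100% and 94.1% ended just before TG in the Exo-AT libraries and 93.9% in the Exo-ADSCs library. Over all counts of other named arms this held for 10.9% and 13.8% in the Exo-AT libraries and 31.4% in the Exo-ADSCs library. Among tags that end before the RefSeq end it held for 100% (4 of 4) and 70.7% (41 of 58) of miR-22-3p counts in the Exo-AT libraries and 93.4% in the Exo-ADSCs library, and for 9.15% and 8.91% of the other arms' counts in Exo-AT replicates 1 and 2 and 40.7% in Exo-ADSCs replicate 2. Of all positions from base 15 to the RefSeq end over the placed arms, 11% are followed by TG (266 of 2426). Tags of other arms that end in GAAC, the last bases of the 19 nt tag, held 0.417% and 0.258% of Exo-AT counts and 3.69% of Exo-ADSCs counts. The shares of the other arms are weighted by counts, so abundant arms weigh most. In Exo-ADSCs the other arms together held 69454 counts that end before the RefSeq end. There miR-99b-5p had 21742 counts and miR-100-5p 9989, of which 97.4% and 96.3% ended at least 3 nt early. Shares before TG are not given per arm, so no pattern over many arms is read from them. A match of letters is a description, and its part in the early ends was not tested.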
